A study of Mus musculus with 19 samples.

Results

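Medial and dorsal cortex of SmoM2 mutant mouse embryos were compared by RNA sequencing, with 4 medial libraries set against 4 dorsal libraries that carry the same title numbers. The genes compared are those with at least 1 TPM (a transcript level scaled for gene length and library total) in at least 4 of these 8 libraries, which holds for 12867 of the 47643 gene symbols in the table. Of these, 12062 reached 1 TPM in all 8 libraries and 202 in exactly 4, while another 195 genes reached it in exactly 3 and stayed out. All embryos were at E14.5, counted in embryonic days. The mutants carried GFAP::Cre; SmoM2, a Cre recombinase under a GFAP promoter together with SmoM2, a form of the Smoothened receptor that signals without ligand. The wildtype controls, used here as background, gave 5 dorsal and 5 medial libraries with matching title numbers. A sixth dorsal control has no medial partner and enters no paired fit. The descriptions number the control medial libraries differently from the titles, and the titles were followed. The labels give neither the sex nor the litter, and they do not say that the libraries of a group came from separate embryos. In the paired fits the p-values measure the spread of the medial minus dorsal difference between pairs, with differences in level between pairs removed. Cre under this promoter acts where the promoter is active, so a piece of cortex can mix recombined and other cells, and the table does not tell them apart. The extraction text speaks of medial or lateral cortices where the tissue field reads dorsal or medial; the tissue field was followed.

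Along its mediolateral axis the embryonic cortex is patterned from its edges. The cortical hem, a strip at the medial margin, secretes Wnt and BMP proteins that act on the neighbouring hippocampal primordium, while the lateral edge releases other signals, and neurogenesis runs ahead on the lateral side. In Hedgehog signalling the ligand binds Patched, which releases Smoothened, and GLI transcription factors then switch on targets such as Gli1 and Ptch1; an active Smoothened bypasses the first step. Dissected pieces hold progenitors, neurons, migrating interneurons, vessels and blood, and in such bulk samples fewer cells of a type and less RNA per cell cannot be told apart.

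The promoters of 2 Wnt target genes are shown because Wnt is the main hem signal and both genes come up below. Only promoters that held a searched motif were printed, so these 2 were also selected for their motif. Both are 250 bases up to the transcript start, 5′ to 3′ on the gene's strand, from RefSeq on GRCm38.p6, with the capitals marking CTTTGAT, a site recognised by TCF/LEF factors, or its reverse complement ATCAAAG. Sp5, a Wnt-induced transcription factor gene, carries it at -104 from the start (chr2:70474673-70474922, plus strand). Tnfrsf19, a receptor gene known as a Wnt target and described below among the largest rises, carries the reverse complement at -202 from 1 of its 2 listed starts (chr14:61037988-61038237, minus strand).
Sp5: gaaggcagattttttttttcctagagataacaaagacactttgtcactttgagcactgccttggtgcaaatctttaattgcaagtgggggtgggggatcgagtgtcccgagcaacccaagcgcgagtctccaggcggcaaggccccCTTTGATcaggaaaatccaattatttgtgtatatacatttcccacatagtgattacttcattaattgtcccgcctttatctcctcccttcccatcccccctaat
Tnfrsf19: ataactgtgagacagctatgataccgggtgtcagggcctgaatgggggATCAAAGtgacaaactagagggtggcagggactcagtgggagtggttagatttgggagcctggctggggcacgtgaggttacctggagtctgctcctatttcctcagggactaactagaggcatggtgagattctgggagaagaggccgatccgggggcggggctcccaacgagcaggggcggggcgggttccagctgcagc
Among the genes on the list of Wnt targets with a promoter in the RefSeq table, 3 of 12 held the motif on either strand in this window (25.0%), against 1005 of all 27025 genes in that table (3.72%) and 251 of 9590 tested genes (2.62%). These matches describe letters only, and binding at them was not measured. GACCACCCA, the GLI consensus, was found in none of these 12 genes and in 0.255% of all genes in the table, and TAATTA, a core of homeodomain sites, in none of the 12 and in 5.65%.

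The 8 libraries differed in their levels of genes that mark the regions in controls, and the 2 libraries of a number moved together. A regional index was taken as the mean log2(TPM + 1) of 124 genes at least 2-fold higher medially in controls minus that of 118 genes at least 2-fold lower there, a choice made after the data were seen. It stood at -1.69, -2.43, -0.844 and -2.08 in mutant dorsal libraries 1 to 4 and at 0.914, -0.451, 0.960 and -0.0938 in medial libraries 1 to 4. By this index dorsal library 3 was the least dorsal of its group and medial library 2 the least medial. The difference within a pair ran from 1.80 in pair 3 to 2.60 in pair 1. Whether the place of the cut or the tissue itself made the libraries differ was not tested. Deviations from the group means correlated between the 2 pieces of a number with r from 0.659 to 0.781 across genes in mutants, against 0.167 at most between other numbers, so the libraries were compared within pairs. Deviations within a group sum to 0, so high correlations within numbers lower those between other numbers. Whether a number marks a shared embryo or shared handling was not tested. In the table, 17357 to 18560 genes lay above 0 in each of the 8 libraries; the sequencing depth is unknown.

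**Figure D1:**
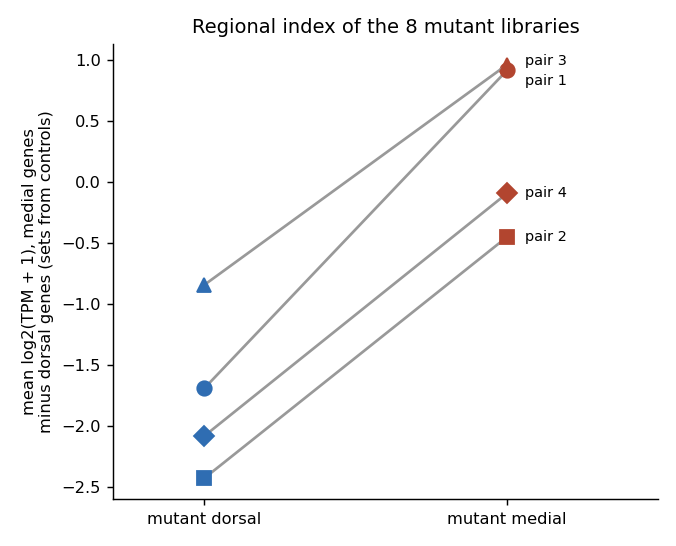
Regional index of the 8 mutant libraries, on the y axis as the mean log2(TPM + 1) of 124 medial genes minus that of 118 dorsal genes (both sets taken from controls); grey lines join the dorsal (blue) and medial (red) library of a pair. All 4 lines rise, by 1.80 to 2.60, and pair 3 starts from the highest dorsal value.

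In limma with the pair as a block, 4201 of the 12867 genes (32.6%) differed between the regions at an adjusted p below 0.05. Of these, 1948 (15.1%) were higher and 2253 (17.5%) lower medially, and 47 and 94 of them by at least 2-fold. The median log2 change of all genes was 0.00. All 4 pairs went in 1 direction for 6479 genes (50.4%), and the 4 medial libraries lay beyond the 4 dorsal ones without overlap for 1984 (15.4%), above for 924 (7.18%) and below for 1060 (8.24%). The calls rest on the pairing: the same 8 libraries fitted without the block gave 0 calls in limma (smallest adjusted p = 0.0542; 3538 genes at an unadjusted p below 0.05, against 5640 with the block), and 1 mean per group over all 19 libraries without a block gave 1083 higher and 1447 lower. Without pair 4 the block fit called 955 higher and 1281 lower, and without pair 2 it called 1119 and 1386.

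The largest medial rises were those of Loxl1, Dct, Bcan and Crym, in that order. Values follow in the order of the title numbers 1 to 4. Loxl1, a lysyl oxidase gene of elastic fibres (chr9:58287738-58313186, GRCm38, minus strand), stood at 0.962, 0.318, 1.75 and 1.17 TPM dorsally and at 44.0, 9.13, 15.7 and 14.3 TPM medially. Every medial library lay above every dorsal one, and medial library 1 was the highest; the log2 change in TPM + 1 was 3.22 ± 0.34 (standard error; adjusted p = 0.00276). Bcan, which encodes the brain proteoglycan brevican (chr3:87987531-88000230, minus strand), read 3.51, 2.52, 11.5 and 2.53 TPM dorsally and 24.4, 25.0, 47.9 and 19.9 TPM medially, a change of 2.48 ± 0.14 (adjusted p = 0.000174). Both pieces of pair 3 were the highest of their group for Bcan, yet the medial libraries did not reach down to any dorsal one. Crym, a thyroid hormone binding protein gene, read 3.56, 1.10, 2.46 and 1.15 TPM dorsally and 27.9, 8.45, 17.6 and 9.19 TPM medially (2.38 ± 0.10, adjusted p = 4.03e-05). Pairs 1 and 3 held the higher Crym values on both sides.

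Dct, the dopachrome tautomerase gene of melanin synthesis, read 0.935, 0.587, 8.06 and 6.75 TPM dorsally and 37.8, 13.5, 18.2 and 56.1 TPM medially. Its change of 2.87 ± 0.56 (adjusted p = 0.0233) had the largest standard error of the 30 leading genes, and the call was lost without pair 2 or without pair 4. Hopx, a homeodomain protein gene of hippocampal and outer radial glia (chr5:77086988-77115121, minus strand), read 8.42, 7.0, 14.9 and 9.49 TPM dorsally and 70.1, 20.8, 37.2 and 34.2 TPM medially (1.84 ± 0.31, adjusted p = 0.0154). The Hopx groups did not overlap, but medial library 1 stood well above the other 3 and the call was lost without pair 2 or pair 4. Tnfrsf19, whose promoter is printed above, read 22.9, 18.5, 28.6 and 25.0 TPM dorsally and 103, 29.9, 86.3 and 59.1 TPM medially (1.39 ± 0.25, adjusted p = 0.0197; lost without pair 3 or pair 4). The lowest medial library, number 2, lay just above the highest dorsal one, number 3.

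Prox1 and Fzd9 were also among the 15 largest rises. Prox1, a homeobox gene of dentate granule cells, read 0.524, 0.242, 1.12 and 0.455 TPM dorsally and 7.75, 1.79, 5.54 and 2.45 TPM medially (1.64 ± 0.22, adjusted p = 0.0024). Fzd9, a Wnt receptor gene, read 11.5, 5.17, 13.4 and 8.07 TPM dorsally and 52.5, 22.3, 42.2 and 26.4 TPM medially (1.80 ± 0.09, adjusted p = 0.000101). For both genes pairs 1 and 3 stood above pairs 2 and 4 on either side, and these 2 pairs also had the higher regional index in both regions. The index averages genes that are higher medially in controls, which can include both of these, so the likeness may be built in. Lhx9, a LIM homeobox gene, rose by 1.80 ± 0.22, Hey2, a transcriptional repressor gene of the Notch pathway, by 1.70 ± 0.11, and Gabra4, a GABA receptor subunit gene, by 1.59 ± 0.11. The rest of the 15 were Rmst, a long noncoding RNA (2.20 ± 0.32; lost without pair 2), Fbln7, a fibulin gene (1.92 ± 0.12), Entpd2, an ectonucleotidase gene (1.59 ± 0.22), and Gpd1, a glycerol phosphate dehydrogenase gene (1.49 ± 0.12).

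The largest medial falls were those of Mc4r and Npy. Mc4r, the melanocortin 4 receptor gene, read 51.5, 72.6, 18.2 and 58.7 TPM dorsally and 10.3, 14.0, 2.58 and 9.60 TPM medially, a change of -2.36 ± 0.06 (adjusted p = 5.28e-06). Both pieces of pair 3 were the lowest of their group, and the pairs' own log2 changes lay close together, between -2.49 and -2.22. Npy, the neuropeptide Y gene (chr6:49822710-49829507, plus strand), read 18.4, 25.6, 7.79 and 23.0 TPM dorsally and 3.82, 5.70, 0 and 4.16 TPM medially (-2.34 ± 0.20, adjusted p = 0.000695). It was listed at 0 in medial library 3.

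Cux2, a homeobox gene of upper-layer neurons and their progenitors, read 21.0, 34.9, 10.6 and 27.2 TPM dorsally and 6.6, 8.34, 3.44 and 7.42 TPM medially (-1.65 ± 0.09, adjusted p = 0.000102). Pou3f1, a POU factor gene of the same neurons, fell by 1.62 ± 0.10 and Chl1, a cell adhesion gene of growing axons, by 1.49 ± 0.07. Lrrtm3, a synaptic adhesion gene, fell by 1.91 ± 0.18, Hs3st3b1, a heparan sulfate sulfotransferase gene, by 1.88 ± 0.08, and Ntm, the neurotrimin gene, by 1.64 ± 0.07. Other falls among the 15 were Rgs6, a regulator of G protein signalling (-1.60 ± 0.16), Col22a1, a collagen gene (-1.48 ± 0.16), Gnal, an olfactory-type G protein subunit gene (-1.48 ± 0.16), and Ube2ql1, a ubiquitin-conjugating enzyme gene (-1.46 ± 0.06). Of the 30 leading genes, 26 kept their call without each pair in turn; the exceptions are Dct, Hopx, Rmst and Tnfrsf19, named above.

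**Figure D2:**
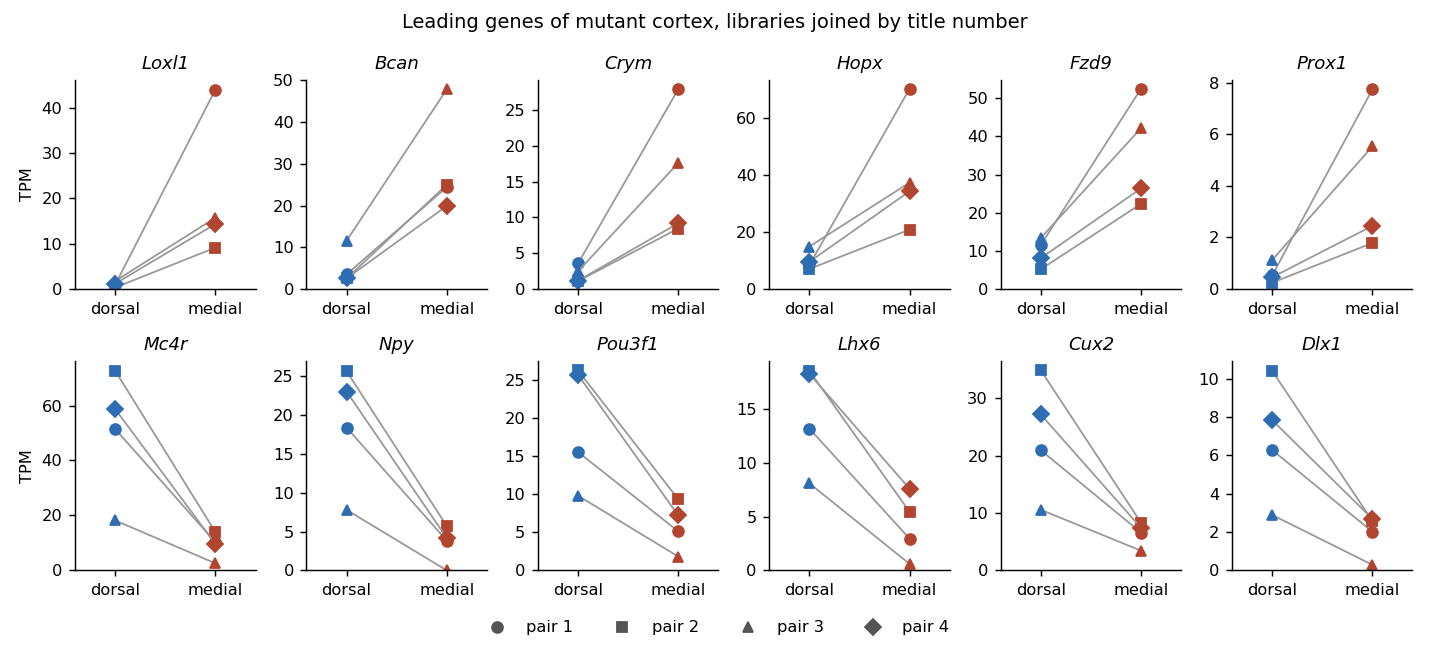
TPM of 12 leading genes (y axis, linear, from 0) in the dorsal (blue) and medial (red) mutant libraries, with a grey line for each pair and 1 symbol per title number. The upper 6 genes rise in all 4 pairs and the lower 6 fall in all 4, with pair 3 lowest dorsally for each of the lower 6.

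Several hem signalling genes were high in 1 of the 4 medial libraries only, number 1. These genes fell below the filter and were named, apart from Wnt3a, Wnt8b and Lmx1a, after their values were seen. Wnt8b, a Wnt ligand gene of the hem and hippocampal primordium, stood at 23.7 TPM in medial library 1 and at 0.0765, 0.598 and 0.144 TPM in libraries 2 to 4. Wnt3a, the hem ligand needed for hippocampal growth, read 7.83, 0.0468, 0.0318 and 0 TPM, and Lmx1a, a LIM homeobox gene of the hem, 11, 0.342, 0.465 and 0.406 TPM. Medial libraries 2 to 4 did not separate from the dorsal ones for these 3 genes: dorsally Wnt8b reached at most 0.529, Wnt3a 0.259 and Lmx1a 0.391 TPM. The Wnt agonist genes Rspo1 (12.7 TPM) and Rspo2 (17.4 TPM), the ligand gene Wnt2b (3.46 TPM) and Sp5 (5.86 TPM), whose promoter is printed above, were likewise high in medial library 1, with at most 0.335, 0.423, 0.0265 and 0.293 TPM in the other medial libraries. In controls the hem genes varied too, Wnt8b reading 22.8, 17.6, 1.88, 0.352 and 8.21 TPM in the 5 medial libraries. Other genes of the hem list were not limited to library 1: Msx1, a homeobox gene, read 5.97, 0.0667, 2.45 and 0.336 TPM in medial libraries 1 to 4, against at most 0.493 TPM dorsally, and Bmp6, a BMP ligand gene, 0.741, 0, 0.874 and 0.0674 TPM, against at most 0.198 TPM. The 4 medial libraries thus differed in their hem transcripts, and the part of the dissection in this was not tested.

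**Figure D3:**
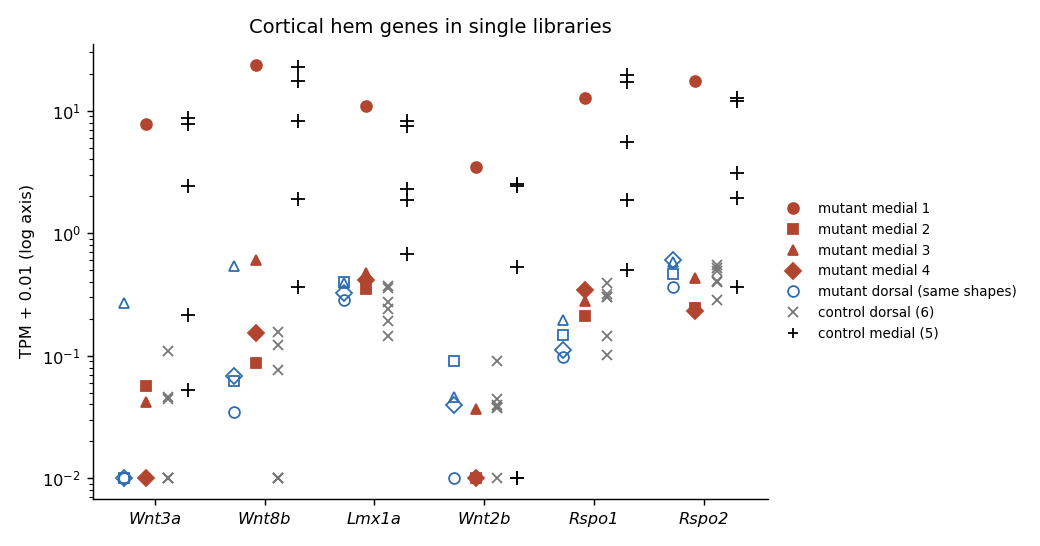
TPM + 0.01 on a log axis of 6 hem genes in single libraries: mutant medial (filled red) and dorsal (open blue) with 1 symbol per title number, control dorsal as grey crosses and control medial as black plus signs. Mutant medial library 1 lies at 3.46 to 23.7 TPM, apart from the other 3 medial libraries.

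Of the 20 hem genes listed, 7 passed the filter. Of these 7, 2 were called higher (28.6% against 15.1% of all genes) and 1 lower (14.3% against 17.5%). Their median was 0.94 and turned to -0.08 over the 3 members reaching 5 TPM in at least 4 libraries. Lhx9, above, and Bmp7, a BMP ligand gene (0.94 ± 0.21, adjusted p = 0.0161; lost without pair 3), rose. Wnt7b, a ligand gene of neurons and progenitors, fell without overlap: it read 146, 194, 101 and 193 TPM dorsally and 60.1, 68.9, 35.9 and 75.1 TPM medially (-1.39 ± 0.05, adjusted p = 2.17e-05). Wnt5a, another ligand gene, read 0.778, 1.19, 0.883 and 1.03 TPM dorsally and 13.6, 1.78, 4.11 and 3.20 TPM medially, 1.47 ± 0.45 with an adjusted p = 0.0627, and passed without pair 1. Bmp7, whose change is the list median, read 0.568, 0.704, 1.16 and 0.901 TPM dorsally and 4.12, 1.16, 3.52 and 2.00 TPM medially. It met the 1 TPM filter mainly through its medial libraries, so the share and median of this list partly restate the filter.

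Medial pallium genes were more often higher than lower: of 26 tested, 12 rose (46.2% against 15.1% of all genes) and 4 fell (15.4% against 17.5%), with a median of 0.58. The median was 0.33 without pair 1 and 0.26 with a pseudocount of 5. Prox1 and Lef1 on this list lay mostly below 1 TPM dorsally and so met the filter mainly through their medial libraries. Emx2, a homeobox gene that medial cortex needs, read 15.8, 9.75, 21.8 and 16.2 TPM dorsally and 48.1, 25.6, 53.1 and 33.0 TPM medially, without overlap (1.27 ± 0.08, adjusted p = 0.000185). Lhx2, a selector gene of cortex against hem, rose without overlap by 0.80 ± 0.06 (adjusted p = 0.000224), from 94.4 to 177 TPM dorsally to 192 to 279 TPM medially. Lef1, a Wnt effector that the hippocampus depends on, rose by 0.99 ± 0.16 (adjusted p = 0.00356), from 0.769, 0.664, 1.59 and 0.858 TPM to 3.82, 1.31, 4.32 and 2.70 TPM, where medial library 2 lay below dorsal library 3. Zic1, a zinc finger gene of the midline and of meninges, read 2.33, 2.67, 8.24 and 4.81 TPM dorsally and 44.4, 7.28, 16.3 and 23.6 TPM medially (1.98 ± 0.54, adjusted p = 0.0546, past the test without pair 1). Mef2c, a neuronal transcription factor gene on the same list, fell by 0.87 ± 0.07 (adjusted p = 0.000286), as did Epha7, Etv1 and Gpr161, the last 2 named after their values were seen (-0.30 and -0.26). Nr2f1, a gene that grades along the cortex, stood at -0.28 ± 0.12 (adjusted p = 0.125), and it passed as lower without pair 3 (adjusted p = 0.00812 in limma).

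Wnt and BMP pathway genes were more often higher than lower. Of 11 Wnt target and feedback genes, 4 rose (36.4% against 15.1% of all genes) and 1 fell (9.09% against 17.5%), with a median of 0.26 that was 0.10 without pair 1: Tnfrsf19, Lef1, Axin2, the negative feedback gene (0.69 ± 0.18, adjusted p = 0.0368; lost without pair 3 or pair 4), and Znrf3, a ligase gene that removes Wnt receptors (0.50 ± 0.10), against Nkd1, a naked cuticle gene (-0.53 ± 0.06). Axin2 read 8.87, 9.33, 10.4 and 8.80 TPM dorsally and 24.1, 10.8, 18.1 and 12.5 TPM medially, with medial library 2 close to dorsal library 3. Of 22 Wnt receptor and secreted antagonist genes, 8 rose (36.4%) and 1 fell (4.55%), among them Frzb, a secreted antagonist gene (0.89 ± 0.14), and Fzd7, a receptor gene (0.44 ± 0.08). The gene that fell was Porcn, which encodes the enzyme that acylates Wnt proteins (-0.37 ± 0.08; lost without pair 4). Of 22 BMP pathway genes, 9 rose (40.9%) and 3 fell (13.6%; median 0.06): Bmp3, an antagonistic ligand gene, rose by 1.09 ± 0.13, Fst, the follistatin gene, by 0.93 ± 0.10 and Id4, a target gene, by 0.84 ± 0.09, and Id2, another target, fell by 0.68 ± 0.07. These rises depended on the pairs: without pair 3 the Wnt target, Wnt receptor and BMP lists had 2, 5 and 5, and without pair 4 they had 2, 3 and 4.

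The Hedgehog target genes Gli1, Ptch1, Hhip and Fgf15 did not pass between the regions in the paired fit of the 8 mutant libraries. Gli1, the pathway's direct target, read 34.5, 31.9, 42.8 and 30.7 TPM dorsally and 24.3, 40.2, 48.1 and 36.3 TPM medially, a change of 0.06 ± 0.14 (adjusted p = 0.78). Medial library 1 was the lowest of all 8 and medial library 3 the highest, and without pair 1 Gli1 passed the test as higher medially (0.24, adjusted p = 0.0147). Ptch1, the Hedgehog receptor gene, read 71.2, 64.3, 67.0 and 47.8 TPM dorsally and 52.2, 68.9, 63.2 and 52.7 TPM medially (-0.07 ± 0.10, adjusted p = 0.605). Hhip, which encodes a Hedgehog-binding membrane protein, read 31.1, 33.4, 25.7 and 23.9 TPM dorsally and 9.56, 28, 14.49 and 16.9 TPM medially (-0.78 ± 0.24, adjusted p = 0.0674), and it passed as lower without pair 1 (-0.50, adjusted p = 0.0152) and in the 3 limma fits that share the spread with controls (adjusted p from 0.000502 to 0.0105). Fgf15, a growth factor gene of progenitors, stood at 0.14 ± 0.22 (adjusted p = 0.679) and passed as higher without pair 1 (0.39, adjusted p = 0.0277). These standard errors are wide enough that equal levels are not shown.

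Smo, Cdon and Gli3, which transmit or modify the Hedgehog signal, rose medially. Of the 18 genes on the Hedgehog list, 7 rose (38.9% against 15.1%, or 4 genes without pair 2) and 1 fell (5.56% against 17.5%). Their median was 0.06, and 0.21 without pair 1. The one that fell was Igfbp3, a gene for a growth factor binding protein (-0.24), picked out after its value was seen. Smo, whose value sums the native and the SmoM2 transcripts if both map to it, read 141, 110, 154 and 114 TPM dorsally and 171, 158, 183 and 167 TPM medially, without overlap (0.40 ± 0.06, adjusted p = 0.0024). In controls Smo rose by 0.56 in the same direction. Cdon, a co-receptor gene, rose by 0.40 ± 0.06 and Gli3, which encodes mainly a repressor, by 0.29 ± 0.04, while Gli2, an activator gene, stood at 0.04 ± 0.12 (adjusted p = 0.81). Olig2, a ventral progenitor gene downstream of Hedgehog, read 18.7, 13.8, 22.4 and 8.64 TPM dorsally and 28.4, 25.3, 29.5 and 27.8 TPM medially, all medial libraries above all dorsal ones (0.84 ± 0.20, adjusted p = 0.0326; lost without pair 2). Prm1, a sperm chromatin gene whose 3′ sequence is used in some Cre transgenes, was high in every mutant library, at 132, 160, 385 and 251 TPM dorsally and 160, 217, 540 and 311 TPM medially, against means of 0.166 and 0.182 TPM in control dorsal and medial libraries. It rose medially in each pair (0.38 ± 0.04, adjusted p = 0.000985), by less than the spread between pairs; where these reads come from was not tested.

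Progenitor genes were more often higher than lower medially. Of 26 radial glia genes, 16 rose (61.5% against 15.1% of all genes) and 4 fell (15.4% against 17.5%; 2 without pair 2, 3 or 4), with a median of 0.32; the 4 that fell, named after their values were seen, were Mt3, a metallothionein gene (-1.53), Rgcc (-0.66), Ptn, the pleiotrophin gene (-0.44), and Ddah1 (-0.12). Sox2, a neural stem cell factor gene, read 316, 257, 353 and 261 TPM dorsally and 430, 405, 518 and 419 TPM medially, without overlap (0.58 ± 0.05, adjusted p = 0.000257). Sox9, a glial and progenitor factor gene, rose by 0.69 ± 0.06, Sox3 by 0.56 ± 0.05 and the intermediate filament gene Vim by 0.38 ± 0.03, all without overlap. Pax6, a patterning gene, rose by 0.48 ± 0.07 (adjusted p = 0.00209), from 33.1 to 50.9 TPM dorsally to 50.1 to 64.2 TPM medially. It was not among the genes that passed the interaction test against controls described below. Of 25 intermediate progenitor genes, 12 rose (48.0%) and 5 fell (20%; median 0.23): Neurod4, a proneural gene, rose by 1.01 ± 0.07, Chd7, a chromatin remodeller gene, by 0.83 ± 0.05 and Dll1, a Notch ligand gene, by 0.59 ± 0.04, while Pcdh18, a protocadherin gene, fell by 0.63 ± 0.06. Eomes, the marker of these cells, read 272, 204, 296 and 224 TPM dorsally and 255, 298, 304 and 296 TPM medially (0.22 ± 0.11, adjusted p = 0.184), and passed without pair 1. Of 17 genes of outer radial glia, 6 rose (35.3% against 15.1% of all genes) and 5 fell (29.4% against 17.5%). The counts were 3 and 3 without pair 4 and 4 and 3 without pair 2. Stat3, a cytokine effector gene, rose by 0.76 ± 0.13, and Etv5, an ERK target gene, fell by 1.10 ± 0.17.

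Cell cycle genes that passed rose by small amounts, with 1 exception among the S-phase and G2/M genes. Of 44 S-phase genes, 22 rose (50.0% against 15.1% of all genes) and none fell (median 0.19), and of 54 G2/M genes, 30 rose (55.6%) and 1 fell (median 0.18), in limma at the same threshold; the one that fell was the condensin gene Ncapd2 (-0.17), picked out after its value was seen. These counts depend on the pairs: without pair 4 they were 3 and 10, without pair 2 they were 4 and 13, and without pair 1 they were 27 and 43. Ccne1, a cyclin gene of S-phase entry, rose without overlap by 0.63 ± 0.08 (adjusted p = 0.00129), from 17.8 to 27.5 TPM dorsally to 29.3 to 37.5 TPM medially. Rpa2, a gene for a single-strand DNA binding protein, rose by 0.31 ± 0.04 and Cdc20, an activator of mitotic exit, by 0.25 ± 0.04. The cyclin-dependent kinase genes Cdk6 and Cdk4 did not pass: Cdk6 read 62.6, 51.5, 77.8 and 55.7 TPM dorsally and 49.1, 62.4, 68.7 and 64.1 TPM medially (-0.01 ± 0.11, adjusted p = 0.938). Ccnd2, a D-type cyclin gene, stood at 0.15 ± 0.11 (adjusted p = 0.326). Mycn, a proliferation gene and Hedgehog target, rose by 0.38 ± 0.03 without overlap. Of 25 genes of G1 cyclins, kinases, inhibitors and their E2F partners, 7 rose (28%; 4 without pair 2 and 2 without pair 4) and 3 fell (12%; median 0.11).

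Neuronal genes were more often lower than higher medially. Of 23 pan-neuronal genes, none rose and 18 fell (78.3% against 17.5% of all genes), with a median of -0.52. Neurod2, a transcription factor gene of glutamatergic neurons, read 340, 476, 293 and 419 TPM dorsally and 176, 270, 178 and 254 TPM medially, without overlap (-0.80 ± 0.05, adjusted p = 0.000102). Snap25, a synaptic vesicle fusion gene, fell by 0.79 ± 0.06, Dcx, a microtubule gene of migrating neurons, by 0.54 ± 0.05 and Elavl3, an RNA-binding protein gene, by 0.48 ± 0.04. Of 18 upper-layer genes 12 fell (66.7%) and 2 rose (11.1%, median -0.38). Of 24 deep-layer genes 13 fell (54.2%) and 4 rose (16.7%, near the 15.1% of all genes), with a median of -0.33. Only 2 deep-layer genes rose without pair 1 or pair 3. Tbr1, a transcription factor gene of layer VI, read 44.9, 56.6, 43.6 and 57.6 TPM dorsally and 28.5, 34.4, 28.4 and 37.9 TPM medially (-0.63 ± 0.04, adjusted p = 0.000117), and Ldb2, a LIM domain binding gene of subcerebral neurons, fell by 1.34 ± 0.07. Crym counts among the deep-layer genes that rose, and Lhx2 among the upper-layer ones. Of 26 lateral pallium genes 11 fell (42.3%) and 6 rose (23.1%; median -0.25), Cux2 among the first and Pax6, Crym and Tfap2c, a progenitor factor gene (0.61 ± 0.03), among the second.

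Adhesion and guidance genes were also more often lower than higher. Of 20 cadherins 11 fell (55.0% against 17.5% of all genes) and 1 rose (5% against 15.1%), with a median of -0.32. Of 32 netrin, slit and semaphorin genes 17 fell (53.1%) and 4 rose (12.5%, or 2 genes without pair 4), with a median of -0.31. The cadherin that rose was Pcdh17 (0.25; not called without any 1 of the 4 pairs), and the guidance genes that rose were Slit2 (0.94), Nrp2, a semaphorin receptor gene (0.83), Draxin (0.71) and the netrin receptor gene Dcc (0.35), all named after their values were seen. Cdh6, a cadherin gene of cortical areas, fell by 0.95 ± 0.10, Cdh8 by 0.89 ± 0.07 and Cdh13 by 0.82 ± 0.08. Among the guidance genes Sema6d, a transmembrane semaphorin gene, fell by 0.87 ± 0.04, Sema3f, a secreted one, by 0.83 ± 0.07 and Robo2, a slit receptor gene, by 0.58 ± 0.06. Of 18 ephrin and Eph genes 6 fell (33.3%) and 3 rose (16.7%, near the 15.1% of all genes), Epha7 by -0.53 ± 0.09 and Epha4 by 0.40 ± 0.04. Of 12 retinoic acid and thyroid hormone genes 4 fell (33.3%) and 3 rose (25.0%; median -0.11, which turned positive with a filter at 5 TPM and with no filter); Thra, a thyroid hormone receptor gene, fell by 0.51 ± 0.05 and Dio3, a deiodinase gene that inactivates the hormone, by 1.03 ± 0.26 (adjusted p = 0.0346; lost without pair 2 or pair 4). Of 17 ERK and FGF target genes 4 fell (23.5%; 2 without pair 4) and 2 rose (11.8%, under the share of all genes; median -0.12): Dusp6, an ERK phosphatase gene, fell by 0.43 ± 0.05 and Dusp4, another, rose by 0.69 ± 0.12 (lost without pair 2 or pair 4). Of 12 nuclear factor I and glial genes 5 rose (41.7%) and none fell (2 did without pair 1 and 1 without pair 3; median 0.11), Fgfr3, an FGF receptor gene, by 0.44 ± 0.06.

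**Figure D4:**
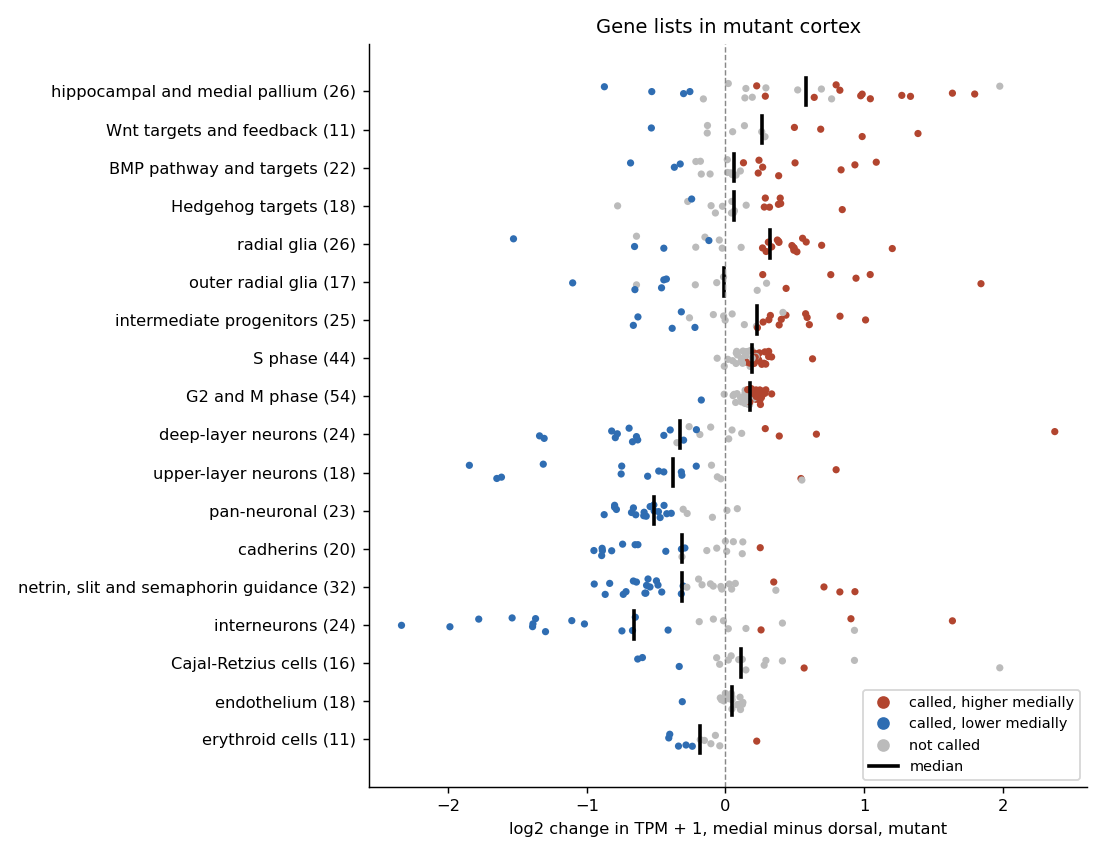
Log2 change in TPM + 1, medial minus dorsal in mutants (x axis), for the tested members of 18 gene lists (rows, number tested in brackets); red and blue points passed limma, grey did not, and black bars are medians. The pan-neuronal and interneuron lists sit at medians of -0.52 and -0.66, the medial pallium list at 0.58.

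Of 24 interneuron genes, 14 fell (58.3% against 17.5% of all genes) and 3 rose (12.5% against 15.1%), with a median of -0.66. With a pseudocount of 5 the median was -0.37, and of the 14 that reached 5 TPM, 6 fell and the median was -0.14. Lhx6, a homeobox gene of interneurons from the medial ganglionic eminence (chr2:36081953-36105408, minus strand), read 13.2, 18.6, 8.11 and 18.3 TPM dorsally and 2.95, 5.46, 0.603 and 7.60 TPM medially, without overlap (-1.78 ± 0.21, adjusted p = 0.00207). Dlx1, a homeobox gene of all cortical interneurons, read 6.28, 10.4, 2.89 and 7.84 TPM dorsally and 2.02, 2.58, 0.293 and 2.69 TPM medially (-1.45 ± 0.11, adjusted p = 0.000216). In both, pair 3 was lowest on either side. Gad2, a GABA synthesis gene, fell by 1.37 ± 0.13, Slc32a1, the vesicular GABA transporter gene, by 1.30 ± 0.11 and Erbb4, a neuregulin receptor gene that guides them, by 1.39 ± 0.13. The 3 that rose were Prox1 and, named after their values were seen, Sp8 (0.91) and Sox6 (0.26). Of 6 ventral progenitor genes 3 fell (50% against 17.5%) and 1 rose (16.7%, near the 15.1% of all genes). The median was -0.64, and 0.19 over the 3 reaching 5 TPM. Of the 3 that fell, Dlx1 and Lhx6 are interneuron genes as well. The other was Gsx2, a gene of ganglionic eminence progenitors (-0.76 ± 0.20, lost without pair 1 or pair 3). The 1 that rose was Olig2, above.

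Genes that mark other cell types in the pieces were counted the same way, beside shares of 15.1% higher and 17.5% lower over all genes. Of 18 endothelial genes 1 fell (5.56%) and none rose (median 0.05): Apln, a ligand gene of vessel tips, at -0.31 ± 0.09 (adjusted p = 0.0315, lost without pair 1 or pair 4). Of 16 Cajal-Retzius genes 1 rose (6.25%, or 3 genes without pair 1) and 3 fell (18.8%, near the 17.5% of all genes), with Reln, the reelin gene, at 0.10 ± 0.05 (adjusted p = 0.142). Of 11 erythroid genes 5 fell (45.5%) and 1 rose (9.09%, median -0.18), with Hbb-bs, an adult beta-globin gene, at -0.41 ± 0.05. The globin genes share near-identical copies, so a single value is uncertain. Summed TPM of the erythroid list ran from 2987 to 4222 medially and from 4134 to 5052 dorsally. No choroid plexus gene of 3 tested passed; Ttr, a choroid plexus secretory gene, read 0.208, 21.3, 19.7 and 0.883 TPM dorsally and 0.925, 17.3, 161 and 1.60 TPM medially. Of 13 microglial genes 1 rose (7.69%), Sall1 (0.51 ± 0.11, lost without pair 2, 3 or 4), which progenitors express too. Of 10 pericyte genes 1 rose (10%), the receptor gene Notch3 (0.59 ± 0.06), also a progenitor gene. Of 10 septal and midline genes 2 rose (20%), Zic2 (0.98 ± 0.15) and Zic5 (1.05 ± 0.20), and 1 fell (10%), Trpc4, a channel gene (-0.62 ± 0.11). Of 16 stress and immediate early genes 3 rose (18.8%, near the 15.1% of all genes) and 1 fell (6.25%), with a median of 0.04. Of 9 meningeal genes tested 1 rose (11.1%), Crabp2, a retinoic acid binding protein gene (0.36 ± 0.12, lost without any 1 of the 4 pairs). The summed TPM of all 18 genes on the meningeal list, tested or not, ran from 28.9 to 118 medially and from 28.6 to 39.7 dorsally. Medial library 3 held the high Ttr value. Without pair 3 the meningeal list had none higher and 2 lower, with its median going from 0.41 to 0.08, the pericyte list had 3 lower beside the 1 higher, the microglial list had no call, and the endothelial median turned to -0.03.

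The regional pattern of the mutants was set beside that of wildtype cortex, measured in separate libraries. In the paired fit of 18 libraries, 6112 of the 12867 genes (47.5%) differed between control regions, 3379 (26.3%) higher and 2733 (21.2%) lower medially. In that same fit, with 1 spread shared by both genotypes, 2315 genes were called higher and 2581 lower medially in mutants. The 4201 mutant calls used next come from the 8 mutant libraries alone. Their number is therefore not directly comparable with that of the controls, which also have more pairs. Of the 4201 mutant calls, 3643 were called the same way in controls (86.7% of mutant calls and 59.6% of control calls), 8 the opposite way, and 98.5% had the same sign. Across genes, which are not independent replicates, the log2 changes correlated with Pearson's r = 0.868 and Spearman's rho = 0.838. All 30 leading genes had the same sign in controls, where Bcan stood at 2.49, Mc4r at -2.45, Dct at 2.15, Lhx9 at 2.70, Entpd2 at 0.76 and Col22a1 at -0.64. Their mutant minus control differences ran from -0.90 (Lhx9) to 0.83 (Entpd2), and none of the 30 passed the interaction test in limma described next (8 had an unadjusted p below 0.05).

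Few genes passed the test for a regional change that differs between genotypes: 17 of 12867 (0.132%) did so in limma. Of these, 8 had a more positive change in mutants and 9 a more negative one (1127 genes lay at an unadjusted p below 0.05). Not passing does not show equal regional changes. Cdk6 differed by 0.71 ± 0.24 and Col22a1 by -0.84 ± 0.19 without passing. Ccnd1, a D-type cyclin gene, fell medially in controls by 1.52 and stood at -0.13 ± 0.07 in mutants (difference 1.39, adjusted p = 0.037). In mutants it read 143, 155, 120 and 122 TPM dorsally and 113, 129, 127 and 123 TPM medially, with the groups overlapping. Lypd1, a modulator gene of acetylcholine receptors, went from -0.55 in controls to 0.70 ± 0.12 in mutants (difference 1.25, adjusted p = 0.0207), and Cacng5, a gene for an AMPA receptor regulatory subunit, from -0.23 to 0.68 ± 0.07 (0.91, adjusted p = 0.012). Sox1, a SoxB stem cell gene, stood at -0.16 in controls and rose by 0.52 ± 0.06 in mutants (0.67, adjusted p = 0.0207). Spon1, a floor plate matrix gene, stood at 0.01 in controls and rose by 0.90 ± 0.10 in mutants (0.88, adjusted p = 0.0226).

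Among the more negative ones, Mfap4, a microfibril gene, rose by 1.22 in controls and by 0.40 ± 0.05 in mutants (difference -0.81, adjusted p = 0.0401), and Hes1, a Notch effector gene, by 0.91 and 0.50 ± 0.05 (-0.42, adjusted p = 0.0401). Alcam, an adhesion gene of growing axons, fell by 0.54 in controls and by 1.18 ± 0.07 in mutants (-0.64, adjusted p = 0.0226). Cdkn1c, a cyclin-dependent kinase inhibitor gene, rose by 0.74 in controls and by 0.23 ± 0.05 in mutants (-0.51, adjusted p = 0.0226); the mutant call was lost without pair 4. Over the 9 fits without 1 pair, Cacng5 kept this call in 8, Prokr1 and Pxylp1 in 7, Sox1 in 6, Gtf2f2 in 5, and each of the other 12 genes in 4 or fewer. Without control pair 2 none of the 12867 genes passed in limma (smallest adjusted p = 0.051; 890 at an unadjusted p below 0.05), and without mutant pair 3 only 1 did.

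**Figure D5:**
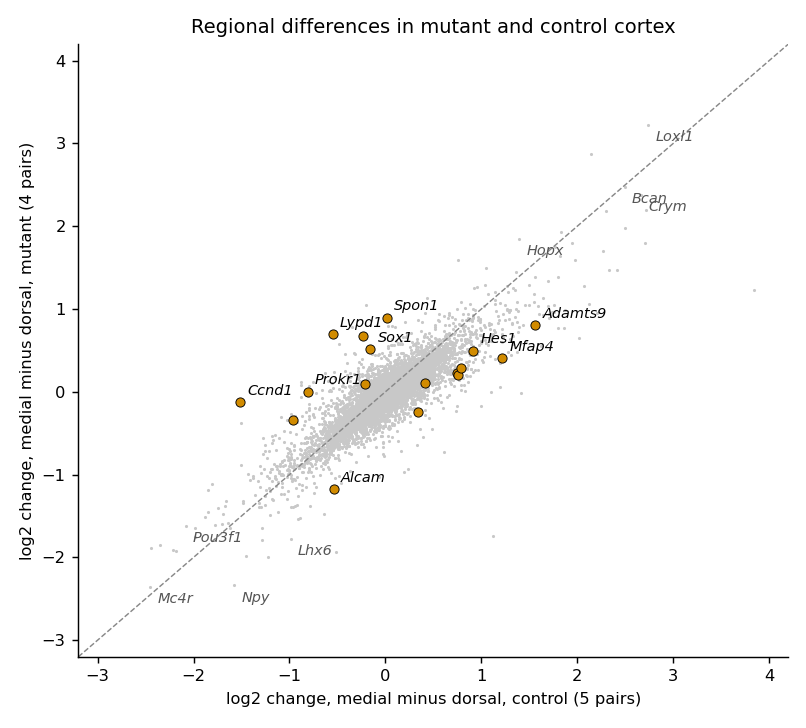
Log2 change in TPM + 1, medial minus dorsal, in mutants (y axis, 4 pairs) against controls (x axis, 5 pairs) for 12867 genes; orange points are the 17 genes past the interaction test and the dashed line marks equal changes. The cloud follows the line with Pearson's r = 0.868.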

How the data were processed

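Per the labels' protocols, RNeasy Micro columns (Qiagen) yielded the RNA of each cortical piece, and libraries were of the stranded TruSeq total RNA type (Illumina). The authors deposited 1 table of TPM with 1 column per library; the submitters' processing notes name the genome build mm10, while for aligner, quantifier and annotation nothing is stated in those notes. Each column of this table sums to the same total, so the depth, and with it the counting error, is unknown.

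Columns were assigned to samples by their titles. Genes reaching 1 TPM in 4 or more of the 8 mutant libraries were tested on log2(TPM + 1) with limma 3.58.1 (R 4.3.3, statmod 1.5.0), with a fixed block for the title number, a mean-variance trend, robust settings and Benjamini-Hochberg adjustment over all genes (threshold 0.05). Because of the added 1, changes of low genes are understated. The filter can be met by the libraries of 1 region alone, so a low gene can enter a list because it is high there. The numbers pair the libraries by the data, since every same-number correlation of deviations exceeded 0.1 (0.586 to 0.824 in controls); the labels state no pairing. The control difference and its difference from the mutant one came from 1 paired fit of 18 libraries. The fits were tested on simulated data.

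Genes were named by a rule: the 15 largest rises and 15 largest falls past the threshold without overlap (leaving out predicted, small RNA, mitochondrial, pseudogene and sex-linked names), up to 10 per direction of the difference between genotypes, up to 4 per list by adjusted p, and a fixed set that includes the Hedgehog genes. The members and the 33 gene lists were chosen with earlier results of these data known. Lists are described by counts and medians, without a test. Some genes that the rule names are not reported here. Positions are from GENCODE M21 on GRCm38, where 12433 of the 12867 symbols (96.6%) had 1 position. Alternatives covered the block, pseudocount, filter, scaling, moderation and each pair left out. Plots were drawn with matplotlib 3.10.9 under Python 3.11.15.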

Additional observations from a re-analysis of the deposited data

Results flagged for a closer look

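The regional change differed between mutants and controls for 17 genes by the interaction test in limma. It was more positive in mutants for Ccnd1 (1.39 on the log2 scale), Lypd1 (1.25), Cacng5 (0.91), Spon1 (0.88), Prokr1, a prokineticin receptor gene (0.81), Sox1 (0.67), Pou3f4, a POU factor gene (0.62), and Pcx, the pyruvate carboxylase gene (0.30). It was more negative for Mfap4 (-0.81), Adamts9, a matrix protease gene (-0.76), Alcam (-0.64), Pxylp1, a proteoglycan phosphatase gene (-0.59), Kcnip3, a calcium sensor gene (-0.56), Cdkn1c (-0.51), Nt5dc2 (-0.49), Hes1 (-0.42) and Gtf2f2, a general transcription factor gene (-0.30).

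Of 300 sets of 4 mutant libraries (150 genes in 2 regions), 25 had 1 library far from the other 3 by Dixon's criterion. Chance marks about 1 in 20 such sets, but the count cannot be read against that share, since some of these genes (Rspo1, Rspo2, Wnt2b and Sp5 among them) were chosen after medial library 1 was seen to stand apart. In medial library 1 these were Wnt8b (23.7 TPM), Rspo2 (17.4 TPM), Rspo1 (12.7 TPM), Lmx1a (11 TPM), Wnt3a (7.83 TPM), Sp5 (5.86 TPM), Wnt2b (3.46 TPM) and Neurod4 (28.5 TPM) on the high side, and Eomes (255 TPM) and Gli2 (4.80 TPM) on the low side. In dorsal library 3, Bcan (11.5 TPM), Cdon (113 TPM), Zic5 (6.58 TPM), Sp8 (5.24 TPM), Wnt8b (0.529 TPM) and Wnt3a (0.259 TPM) were high and Cdh6 (3.12 TPM) was low. Outside these 150 genes, Fgf17 and Fgf8 of the septal and midline list, both below the filter, read 10.7 and 3.00 TPM in dorsal library 3. The other mutant dorsal libraries reached at most 0.116 and 0 TPM. Both genes were picked out after their values were seen, and Lhx8 of the same list read 0 TPM in dorsal library 3. Medial library 2 was high for Apln (16.8 TPM), Dio3 (11.1 TPM) and Gsx2 (2.79 TPM), and medial library 3 for Ttr (161 TPM) and Sox1 (113 TPM). Medial library 4 was high for Gpr161 (45.6 TPM) and low for Prokr1 (7.81 TPM), and dorsal library 2 was low for Fzd7 (9.60 TPM).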

How the results depend on the processing

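The counts of the mutant comparison rest on the pairing: without the block on the title number limma called 0 genes higher and 0 lower, and 1083 and 1447 with 1 mean per group over 19 libraries. Leaving out 1 pair gave 955 to 1829 higher and 1281 to 2060 lower. The control comparison had 2242 genes higher without the block. The difference between genotypes gave 3 higher and 0 lower without the block, 3 lower after median-ratio rescaling and 5 lower after quantile normalization, and 0 to 6 higher and 0 to 10 lower with 1 pair left out. Other pseudocounts, filters and scalings kept the mutant counts within 1.5 times, from 1437 to 2149 higher and from 1759 to 2268 lower. With 1 pair left out, the sign of 7 genes not called in mutants changed: over the 4 such fits Cdk6 ran from -0.11 to 0.10, Ptch1 from -0.14 to 0.050, Gli1 from -0.029 to 0.24, Gli2 from -0.068 to 0.17, Prokr1 from -0.070 to 0.047, Cdh5 from -0.0044 to 0.21 and Enpp2 from -0.20 to 0.20. The cause of these changes was not tested. Of 142 named genes called, 121 kept the call without each pair in turn and 119 in the fit over 19 libraries without the block. The depth is unknown, so the precision of low values is judged from the spread between libraries or pairs alone.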
